A study of Mus musculus with 12 samples.

Results

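The 9 genes described here set the supply, the binding and the removal of retinoic acid. They are the retinaldehyde dehydrogenases Aldh1a1, Aldh1a2 and Aldh1a3, the retinaldehyde reductase Dhrs3, the cellular retinoic acid binding proteins Crabp1 and Crabp2, and the cytochrome P450 enzymes Cyp26a1, Cyp26b1 and Cyp26c1. They were taken by symbol from a table of 24470 genes, where all 9 were listed once. RNA was measured by sequencing in whole mouse testes at E14.5 (E is the embryonic day). The control group was Nr2f2 f/f, which carries the floxed alleles without Cre, and the conditional knockout (cKO) group was Wt1 CreER x Nr2f2 f/f. Pregnant females carrying both genotypes received tamoxifen before collection. Each group had 6 libraries, and each library was a pool of 3 testes. The Cre is driven by Wt1, so recombination is limited to cells that expressed Wt1 when tamoxifen was given and to their descendants, and it need not reach all of these. The RNA of all cell types, recombined or not, is mixed in each pool. In such bulk samples fewer cells of a type and less RNA per cell cannot be told apart.

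Retinoic acid is made from vitamin A in successive oxidations. Retinol enters the cell through STRA6, is oxidised reversibly to retinaldehyde by retinol dehydrogenases such as RDH10, and is then oxidised irreversibly to retinoic acid by the ALDH1A enzymes. DHRS3 turns retinaldehyde back into retinol, CRABP proteins carry retinoic acid in the cytosol, CYP26 enzymes inactivate it, and retinoic acid bound by RAR and RXR receptors in the nucleus controls target genes. In the fetal testis CYP26B1 is known for clearing the retinoic acid that in the ovary promotes Stra8 transcription and the entry of germ cells into meiosis, and Aldh1a2 is expressed by the epithelium at the testis surface.

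Retinoic acid receptors bind paired short sites, and the direct repeat with 5 bases between them (DR5) is the best known retinoic acid response element. It was searched for on both strands in RefSeq promoter windows of 300 bases (250 before and 50 after each annotated start, GRCm38.p6), of which 7 of the 9 genes had at least 1. A DR5 match lay in 32 of 32851 windows (0.0974%). Of the 9 genes only Cyp26a1 had one, in its window on the plus strand, chr19:37697558-37697857. The match began 32 bases and ended 16 bases upstream of the start, and on the other strand it reads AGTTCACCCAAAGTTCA. Among the 30 of 36 other retinoid genes with a window, only Rarb had one, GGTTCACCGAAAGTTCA at chr14:16575513-16575529. The windows of Cyp26a1 and of Cyp26b1 (minus strand, chr6:84593761-84594060), the Cyp26 gene with nearly all of the Cyp26 RNA in these testes, are printed 5′ to 3′ because they differ in this element, with the DR5 match in capitals. No match in a window says only that these letters are not in it.
Cyp26a1: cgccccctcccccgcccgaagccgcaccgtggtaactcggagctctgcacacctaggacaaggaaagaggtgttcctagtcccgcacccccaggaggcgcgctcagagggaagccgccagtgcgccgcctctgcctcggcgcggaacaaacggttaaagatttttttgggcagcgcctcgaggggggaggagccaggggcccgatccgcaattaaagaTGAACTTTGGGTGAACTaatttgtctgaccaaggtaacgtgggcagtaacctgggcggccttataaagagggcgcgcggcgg
Cyp26b1: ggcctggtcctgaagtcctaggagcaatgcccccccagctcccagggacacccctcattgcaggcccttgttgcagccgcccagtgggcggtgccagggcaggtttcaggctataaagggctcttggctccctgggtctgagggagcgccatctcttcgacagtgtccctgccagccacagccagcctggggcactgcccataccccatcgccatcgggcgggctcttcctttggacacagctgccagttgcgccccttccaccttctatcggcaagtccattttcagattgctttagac

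Total counts ran from 7044531 to 59404778 per library. Libraries were scaled by TMM, and levels are given as CPM, the read count of a gene relative to the scaled library total. The quasi-likelihood test of edgeR was applied to the 15572 genes left by a filter on low counts, with p-values adjusted over all of them by the Benjamini-Hochberg method, and genes with an adjusted p under 0.05 were called. Nr2f2, the deleted gene, averaged 175 ± 8.87 CPM in controls and 75.9 ± 24.5 CPM in the cKO (SD, n = 6 each), with no overlap between groups (log2 fold change -1.21 ± 0.16 SE, edgeR adjusted p = 0.000548). The libraries differed in Xist, the noncoding RNA of the inactive X in female cells. It was 304 to 891 CPM in control 1, cKO 3, cKO 5 and cKO 6 and 5.15 to 7.68 CPM in the other 8 libraries. Foxl2, an ovarian transcription factor, was 14.6 to 47.2 CPM in those 4 libraries and at most 1.30 CPM in the other 8. The summed level of 6 ovarian somatic markers was 315, 141, 207 and 193 CPM in control 1, cKO 3, cKO 5 and cKO 6 and 66.7 to 92.8 CPM in the other 8. The labels name all 12 as testis. Results are therefore given for 12 libraries and for the 8 with low Xist (5 control and 3 cKO). Whether these 4 pools hold ovarian tissue or female cells was not tested, and values over the 12 libraries include them.

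None of the 9 genes was called in the comparison of the 12 libraries without a covariate, and 2 were called with Xist as a covariate (Aldh1a1 higher and Dhrs3 lower). The filter kept 7 of them, and edgeR called 0 of the 7 at an adjusted p under 0.05, beside 8.13% of all genes tested. DESeq2 called 0 too, beside 11.6%. The control and cKO ranges overlapped for all 7, where 5.52% of all genes did not overlap (3.13% lower and 2.39% higher in cKO). At an unadjusted p under 0.05 edgeR had 3 of 7 (Aldh1a1, Crabp2 and Dhrs3), beside 25.2% of all genes. The log2 fold changes of the 7 ran from -0.34 to 0.21 with a median of -0.13, against 0.003 over all genes, and 5 were negative. In the 8 libraries with low Xist, 2 of 7 were called lower (Dhrs3 and Crabp1) and 0 higher, beside 7.08% of all genes (3.39% lower and 3.68% higher). Groups that did not overlap were common among so few libraries (28.2% of all genes).

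**Figure D1:**
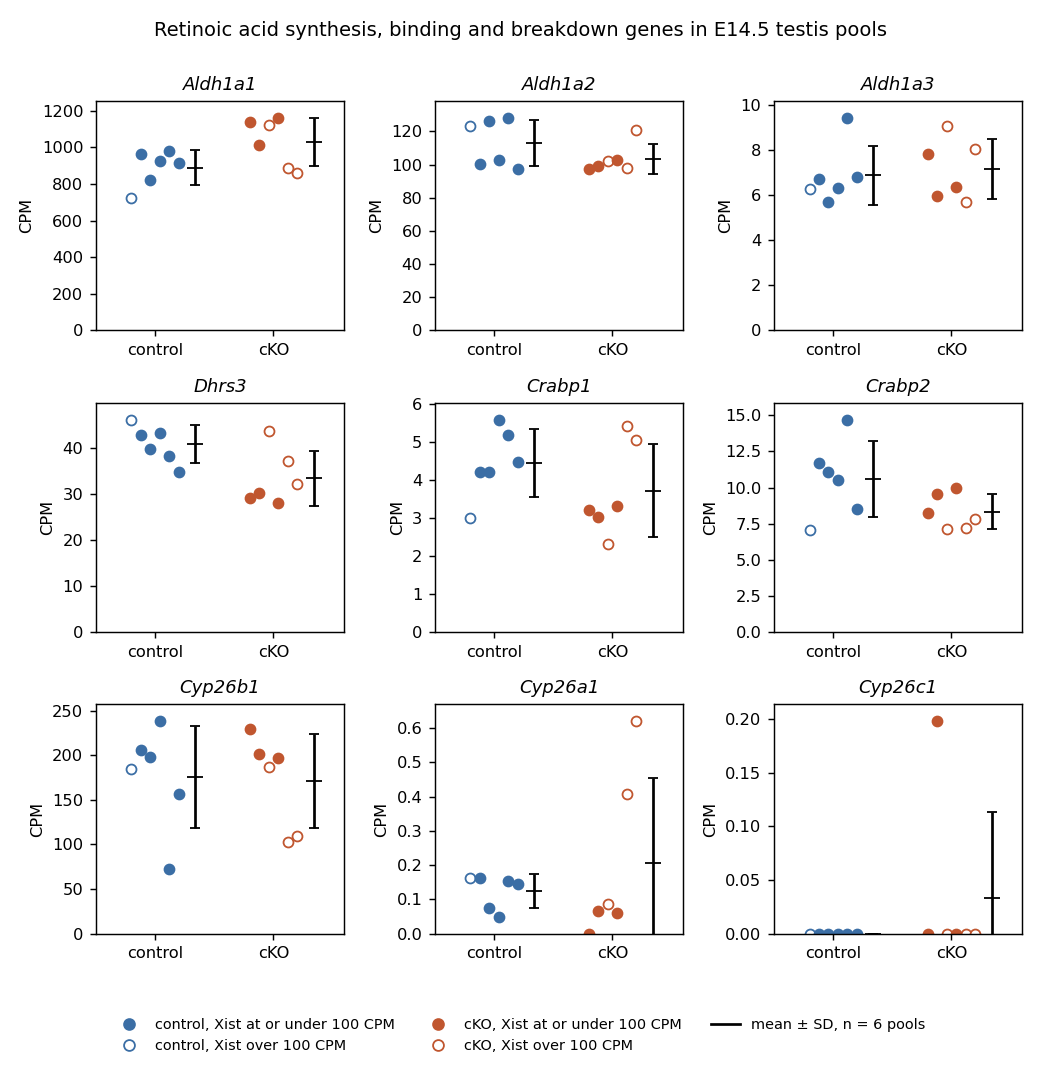
Each panel plots the CPM of 1 gene (linear axis from 0) in 6 control and 6 cKO pools, with the mean ± SD at the right of each group and open points for the 4 libraries with Xist over 100 CPM. The groups overlap for the 7 tested genes. Among filled points, cKO lies under control for Dhrs3 and Crabp1 and over control for Aldh1a1. In those 8 libraries 14.6% of all genes lay lower and 13.6% higher without overlap.

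Per exon length, Aldh1a1 was the most abundant of the 9 genes in control testes at 180.1 ± 19.6 CPM per kb (SD, n = 6), 3.61-fold over the next, Aldh1a2 at 49.9 ± 6.27 CPM per kb. Cyp26b1 followed at 32.8 ± 10.7, Dhrs3 at 14.0 ± 1.38, Crabp2 at 8.0 ± 2.00, Crabp1 at 5.56 ± 1.13 and Aldh1a3 at 1.49 ± 0.283 CPM per kb. Cyp26a1 was at 0.0626 ± 0.0252 CPM per kb and Cyp26c1 had no read in any control library. The control ranges of Aldh1a2 and Cyp26b1 overlapped, as did those of Cyp26b1 and Dhrs3 and those of Crabp2 and Crabp1, so these neighbours are not ordered beyond their spread. In cKO testes only the ranges of Crabp2 and Crabp1 and of Cyp26a1 and Cyp26c1 overlapped among neighbours. The order of the 9 group means was the same in cKO as in control testes.

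**Figure D2:**
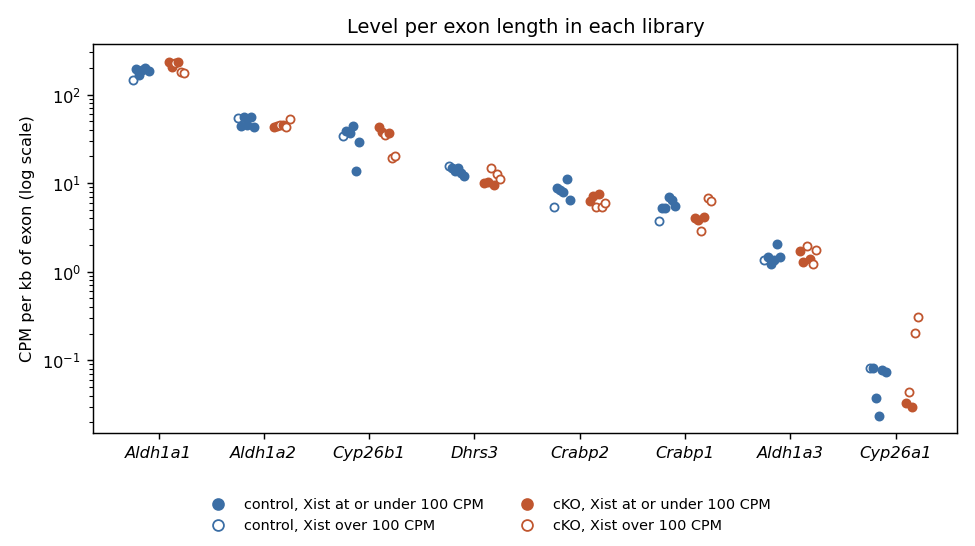
Points give the CPM per kb of exon (log axis) of 8 genes in each library, with open points for Xist over 100 CPM. Libraries at 0 (cKO 1 for Cyp26a1) and Cyp26c1 are not drawn. Aldh1a1 lies above all others and Cyp26a1 below all others in both groups.

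The ALDH1A enzymes make retinoic acid. Aldh1a1 (Entrez 11668, chr19:20601982-20643462 on mm10, plus strand) was 726, 965, 825, 925, 981 and 913 CPM in control 1 to 6 and 1139, 1016, 1123, 1161, 889 and 863 CPM in cKO 1 to 6. Levels in cKO 1 to 4 were above every control, and those in cKO 5 and cKO 6 lay within the control range. The means were 889 ± 96.9 and 1032 ± 131 CPM (SD, n = 6 each), a log2 fold change of 0.21 ± 0.10 SE that did not pass the test (edgeR adjusted p = 0.177). In the 8 libraries the groups did not overlap, at 922 ± 60.8 in control and 1105 ± 78.2 CPM in cKO, beside 13.6% of all genes that lay higher in cKO without overlap there (log2 fold change 0.27, edgeR adjusted p = 0.0811). With Xist as a covariate in the 12 libraries Aldh1a1 was called higher (log2 fold change 0.30, edgeR adjusted p = 0.0348), and Dhrs3 was the other of the 9 genes called in that fit, beside 8.28% of all genes. Its close paralog Aldh1a7, which lies beside it on chromosome 19, was 42.0 ± 4.87 in control and 40.2 ± 7.72 CPM in cKO (log2 fold change -0.06, edgeR adjusted p = 0.774), and the assignment of reads that match both genes is uncertain.

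Aldh1a2 (Entrez 19378, chr9:71215789-71296243, plus strand) was 123, 100.5, 126, 103, 128 and 97.2 CPM in control 1 to 6. In cKO 1 to 6 it was 97.0, 98.8, 102, 103, 98.1 and 121 CPM. The controls fell into a higher and a lower 3, while all cKO libraries except cKO 6 lay at 103 CPM or less. The log2 fold change was -0.13 ± 0.09 SE (113 ± 14.2 against 103 ± 9.10 CPM, edgeR adjusted p = 0.362). It was -0.16 in the 8 libraries (edgeR adjusted p = 0.341).

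Because Aldh1a2 marks the surface epithelium, its level was also set against 6 markers of that cell type (Pdgfc, Podxl, Upk3b, Lhx9, Krt19 and Msln). The paper on these data also ranks Lhx9 high among transcription factors of the interstitial progenitors of fetal Leydig cells. The result is therefore not a level per epithelial cell. The summed level of the 6 markers was 378 to 687 CPM in control testes and 408 to 694 CPM in cKO testes. Podxl was its largest part, at 424, 258, 385 and 379.7 CPM in control 1, cKO 3, cKO 5 and cKO 6. Pdgfc was called lower, Msln higher and the other 4 not. The log2 CPM of Aldh1a2 minus the mean of the markers was 1.63 ± 0.23 in control and 1.31 ± 0.22 in cKO testes (SD, n = 6 each), a difference of -0.32 (exact two-sided permutation test, p = 0.0390). The ranges overlapped. The summed markers were highest in the 4 libraries with high Xist, and in the 8 others the difference was -0.14 (exact permutation p = 0.393, where the smallest p possible is 0.0179). Leaving out 1 library at a time gave -0.39 to -0.26, and the difference missed the threshold in 6 of 12 such runs (without control 2, 3 or 4 or cKO 3, 5 or 6, exact permutation p up to 0.0779). With 1 marker taken out of the list it ran from -0.47 without Pdgfc (exact permutation p = 0.0173) to -0.19 without Msln (exact permutation p = 0.145), and it also missed the threshold without Krt19 (-0.27, p = 0.0519) or Lhx9 (-0.34, p = 0.0628).

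Aldh1a3 (Entrez 56847, chr7:66390892-66427477, minus strand) was low. It ran from 5.68 to 9.41 CPM in control testes (median 6.51) and from 5.70 to 9.05 CPM in cKO testes (median 7.10), on 42 to 479 reads per library. The groups covered the same range (log2 fold change 0.08 ± 0.15 SE, edgeR adjusted p = 0.749).

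Summed per exon length, the Aldh1a genes reached 232 ± 18.2 CPM per kb in control and 256 ± 24.8 CPM per kb in cKO testes, a log2 ratio of 0.15. Aldh1a1 made up 72.5 to 81.0% of this sum in control and 76.0 to 83.8% in cKO libraries, and Aldh1a2 most of the rest. These sums are descriptions of RNA and carry no test.

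Dhrs3 (Entrez 20148, chr4:144892827-144927645, plus strand), the reductase that works against retinoic acid synthesis, was 46.2, 42.9, 39.9, 43.3, 38.3 and 34.8 CPM in control 1 to 6. In cKO 1 to 6 it was 29.2, 30.2, 43.7, 28.0, 37.2 and 32.2 CPM. Levels in cKO 1, 2, 4 and 6 lay under every control, and cKO 3 lay at the upper end of the control range. The means were 40.9 ± 4.05 and 33.4 ± 5.98 CPM (SD, n = 6 each), with a log2 fold change of -0.30 ± 0.11 SE that did not pass over all genes (edgeR adjusted p = 0.110). In the 8 libraries Dhrs3 fell to 29.1 ± 1.10 CPM in 3 cKO pools from 39.9 ± 3.50 CPM in 5 control pools (log2 fold change -0.46 ± 0.09 SE, edgeR adjusted p = 0.0126). Those groups did not overlap, beside 14.6% of all genes that lay lower without overlap. It was also called lower with Xist as a covariate (-0.39, edgeR adjusted p = 0.0160) and without cKO 3 alone (-0.39, edgeR adjusted p = 0.0251), and not without cKO 5 and 6 (-0.32, edgeR adjusted p = 0.186).

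Crabp1 and Crabp2 encode the carriers of retinoic acid in the cytosol. Crabp1 (Entrez 12903, chr9:54764748-54773110, plus strand) was 3.00, 4.23, 4.22, 5.60, 5.20 and 4.48 CPM in control 1 to 6 and 3.21, 3.04, 2.33, 3.32, 5.43 and 5.06 CPM in cKO 1 to 6, on 31 to 302 reads per library. The highest cKO values, in cKO 5 and 6, lay among the higher controls, and control 1 lay among the other cKO libraries. The log2 fold change was -0.27 ± 0.21 SE (4.46 ± 0.904 against 3.73 ± 1.23 CPM, edgeR adjusted p = 0.446). In the 8 libraries Crabp1 fell from 4.75 ± 0.623 to 3.19 ± 0.141 CPM (log2 fold change -0.56 ± 0.15 SE, edgeR adjusted p = 0.0463). Those groups did not overlap, beside 14.6% of all genes that lay lower without overlap there. It was not called with Xist as a covariate (edgeR adjusted p = 0.523) or without cKO 5 and 6 (-0.57, edgeR adjusted p = 0.118).

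Crabp2 (Entrez 12904, chr3:87948693-87953372, plus strand) was 7.03, 11.7, 11.1, 10.5, 14.7 and 8.53 CPM in control 1 to 6. In cKO 1 to 6 it was 8.27, 9.52, 7.12, 9.99, 7.19 and 7.84 CPM. Control 1 was under every cKO library and controls 2 to 5 were above every one. The log2 fold change was -0.34 ± 0.16 SE (10.6 ± 2.65 against 8.32 ± 1.20 CPM, edgeR adjusted p = 0.195). Without control 1 Crabp2 was called lower (-0.45, edgeR adjusted p = 0.0349), and in the 8 libraries it was not (-0.29, edgeR adjusted p = 0.220). The fit without control 1 called 3106 genes, against 1266 with all 12 libraries.

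**Figure D3:**
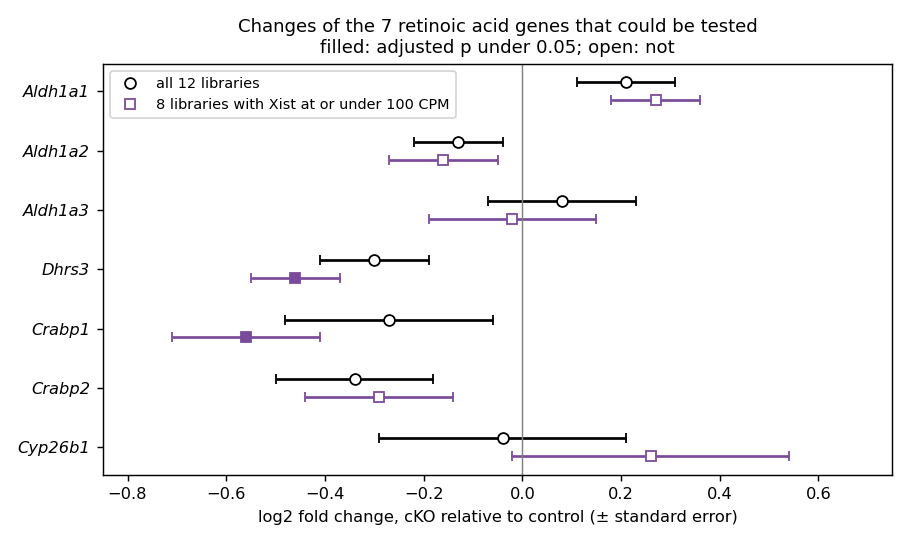
Log2 fold changes of cKO relative to control (± SE) for the 7 tested genes, from 12 libraries (circles) and from the 8 with Xist at or under 100 CPM (squares), with filled symbols where the adjusted p is under 0.05. Only the squares of Dhrs3 and Crabp1 are filled, and Cyp26b1 and Aldh1a3 lie on opposite sides of 0 in the 2 fits.

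The CYP26 enzymes inactivate retinoic acid, and Cyp26b1 (Entrez 232174, chr6:84571414-84593908, minus strand) held at least 98.49% of the summed Cyp26 RNA per exon length in every library. It was 184, 206, 198, 238, 72.5 and 156 CPM in control 1 to 6 and 229, 201, 187, 197, 103 and 109 CPM in cKO 1 to 6. Control 5, cKO 5 and cKO 6 were the 3 lowest of the 12, and the other 9 lay between 156 and 238 CPM. The group means were 176 ± 57.3 and 171 ± 52.2 CPM (SD, n = 6 each), a log2 fold change of -0.04 ± 0.25 SE (edgeR adjusted p = 0.939). The sign changed in the 8 libraries (0.26, edgeR adjusted p = 0.535) and without cKO 5 and 6 (0.21, edgeR adjusted p = 0.617). Both of these sets hold control 5, the lowest of the 12 libraries at 72.5 CPM. Leaving out 1 library at a time gave -0.19 to 0.07.

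Sertoli cells, which form the testis cords around the germ cells, are known to express Cyp26b1. The summed level of 6 Sertoli markers was 526 to 948 CPM in control testes and 541 to 955 CPM in cKO testes. Its lowest values were in control 5, cKO 6 and cKO 5, the libraries with the least Cyp26b1. Amh was the largest part of this sum. Of the controls, control 5 was lowest in Amh (278 CPM), Sox9 (36.0 CPM) and Dhh (71.4 CPM). It was the highest control in Fgf9 (10.5 CPM). Its Ptgds (106 CPM) and Cldn11 (23.8 CPM) were above their control means (93.9 and 21.9 CPM). None of the 6 markers was called. The log2 CPM of Cyp26b1 minus the mean of the markers was 1.47 ± 0.52 in control and 1.48 ± 0.27 in cKO testes (SD, n = 6 each, exact two-sided permutation p = 0.989). It was still lowest in control 5 at 0.49, followed by cKO 5 at 1.11 and cKO 6 at 1.19, against 1.39 to 1.91 in the other 9 libraries.

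Cyp26a1 (Entrez 13082, chr19:37697808-37701536, plus strand) gave 6, 4, 3, 1, 2 and 1 reads in control 1 to 6 and 0, 1, 3, 2, 3 and 37 reads in cKO 1 to 6, and the filter removed it. In CPM it was 0.0471 to 0.163 in control testes, 0 to 0.0861 in cKO 1 to 4, 0.407 in cKO 5 and 0.620 in cKO 6. The groups overlapped, and their log2 CPM differed by 0.09 (exact two-sided permutation p = 0.853). In the 8 libraries the difference was -0.72 (exact permutation p = 0.0893).

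Cyp26c1 (Entrez 546726, chr19:37685680-37693307, plus strand), which lies next to Cyp26a1, gave 3 reads in cKO 2 (0.198 CPM) and none in the other 11 libraries. A count of 0 allows up to 3 reads, which is 0.0502 to 0.434 CPM depending on the library, and covers counting error only. Cyp26c1 RNA was therefore not detectable at this depth in 11 libraries.

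The ratio of summed Aldh1a to summed Cyp26 RNA per exon length was 5.27 to 7.87 in the controls other than control 5, where it was 18.9. It was 6.44 to 7.85 in cKO 1 to 4, 11.6 in cKO 5 and 11.1 in cKO 6. The 3 high ratios thus belonged to the 3 libraries with the least Cyp26b1, which come from both groups.

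The remaining genes of the pathway were followed in 4 lists of 36 genes in all, of which 26 were tested. In cKO testes 3 were called lower and 0 higher (edgeR adjusted p under 0.05), beside 4.85% lower and 3.28% higher over all genes, and the median log2 fold change of the 26 was -0.18 against 0.003. Among genes of retinol uptake and storage, 1 of 4 tested was called lower (Stra6) and all 4 had negative values. Among those that interconvert retinol and retinaldehyde 1 of 9 was called (Rdh11), among receptors and their carrier 0 of 7, and among known target genes 1 of 6 (Tgm2). DESeq2 also called the carrier Fabp5 lower and the target Nrip1 higher. Without control 1, edgeR also called Fabp5, Dhrs4 and Adh1 lower and Rec8 and Nrip1 higher. That fit called 3106 genes, against 1266 with all 12 libraries.

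Stra6 (Entrez 20897), the membrane receptor that takes up retinol, was 21, 18.7, 21.2, 20.1, 14.2 and 16.5 CPM in control 1 to 6 and 11.7, 14.3, 11.3, 11.6, 13.2 and 12.3 CPM in cKO 1 to 6. All cKO libraries except cKO 2 lay under every control. Stra6 fell to 66.6% of its control mean (log2 fold change -0.60 ± 0.11 SE, edgeR adjusted p = 0.00317).

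Rbp4, the carrier of retinol in blood, was 7.78 ± 1.29 in control and 4.85 ± 2.57 CPM in cKO testes, with 5 of 6 cKO libraries under every control and cKO 4 at the top of the control range (log2 fold change -0.63 ± 0.27 SE, edgeR adjusted p = 0.162). Without cKO 4 it was called lower (-0.94, edgeR adjusted p = 0.0247), and in the 8 libraries it was not (-0.36, edgeR adjusted p = 0.411).

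Rdh11, a reductase of retinaldehyde, was 28.5 ± 4.83 in control and 22.3 ± 1.29 CPM in cKO testes (log2 fold change -0.35 ± 0.10 SE, edgeR adjusted p = 0.0465). This call was lost in 20 of 23 alternative analyses, among them 11 of the 12 that left out 1 library. Rdh10, the main retinol dehydrogenase of the embryo, was 24.9 ± 1.73 in control and 28.2 ± 3.76 CPM in cKO testes (log2 fold change 0.17, edgeR adjusted p = 0.241, and 0.04 in the 8 libraries, edgeR adjusted p = 0.745).

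The retinoic acid receptors were not called. Rara was 62.8 ± 10.7 against 67.8 ± 8.25 CPM (log2 fold change 0.11, edgeR adjusted p = 0.585, and 0.30 in the 8 libraries, edgeR adjusted p = 0.132), and Rarg was 31.8 ± 2.97 against 28.0 ± 2.97 CPM (-0.18, edgeR adjusted p = 0.207, and -0.11 in the 8 libraries, edgeR adjusted p = 0.405). Rarb, itself a target of retinoic acid and the other gene with a DR5 match above, was 4.65 ± 1.64 against 3.46 ± 1.01 CPM (-0.44 ± 0.23 SE, edgeR adjusted p = 0.247). Its log2 fold change was -0.23 without control 5 (edgeR adjusted p = 0.515) and -0.72 in the 8 libraries (edgeR adjusted p = 0.125).

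Tgm2 (Entrez 21817), a transglutaminase that retinoic acid induces in many cells, was 190.0, 232, 246, 226, 266 and 231 CPM in control 1 to 6. In cKO 1 to 6 it was 162, 177, 147, 176, 132 and 152 CPM, all under the lowest control, as held for 3.13% of all genes in this direction. Tgm2 fell to 68.0% of its control mean (log2 fold change -0.56 ± 0.09 SE, edgeR adjusted p = 0.00183). Stra6 and Tgm2 kept their calls in all 23 alternative analyses, including the 8 libraries (edgeR adjusted p = 0.0364 and 0.00610). Nrip1, a nuclear receptor corepressor gene that retinoic acid induces, was chosen after its values were seen and went the other way. Its control mean was 25.9 ± 8.64 CPM and its cKO mean 36.0 ± 3.15 CPM (SD, n = 6 each), a log2 fold change of 0.46 ± 0.16 SE that did not pass (edgeR adjusted p = 0.100). It was called higher in the 8 libraries (0.59, edgeR adjusted p = 0.00755), without control 1, the highest control (0.66, edgeR adjusted p = 0.000433), and by DESeq2 (0.46, DESeq2 adjusted p = 0.0457). Leaving out control 1 raised the genes called by edgeR from 1266 to 3106.

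Markers of other cell types changed in the same pools, beside 4.85% of all genes called lower and 3.28% higher. All 5 contractile cell markers were called lower (summed 563 to 692 CPM in control testes and 335 to 514 CPM in cKO), as were 4 of 6 fetal Leydig markers (1849 to 3139.6 and 1035 to 1995 CPM) and 2 of 6 interstitial progenitor markers, where 1 was higher (988 to 1293 and 634 to 1102 CPM). Of the macrophage markers 2 of 4 were called higher, and their sums did not overlap (23.5 to 30.4 CPM in control and 35.6 to 45.5 CPM in cKO). Of the mesonephric epithelium markers 2 of 5 were called higher (Pax8 and Lhx1, log2 fold change 0.47 and 0.85). The summed 5 were 45.7 to 85.9 CPM in control and 44.3 to 70.0 CPM in cKO testes. Most of this sum was Emx2 (control mean 44.9 CPM), which was not called (-0.17, edgeR adjusted p = 0.624). In the 8 libraries Emx2 was called lower (-0.33, edgeR adjusted p = 0.0454), and Pax8 and Lhx1 were not called (edgeR adjusted p = 0.0808 and 0.107). In the other lists not yet described at most 1 marker was called. Of these markers only Cdh16, of mesonephric epithelium, was at 0 in a library. Their part in the levels of Dhrs3, Crabp1, Stra6 and Tgm2 was not tested.

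**Figure D4:**
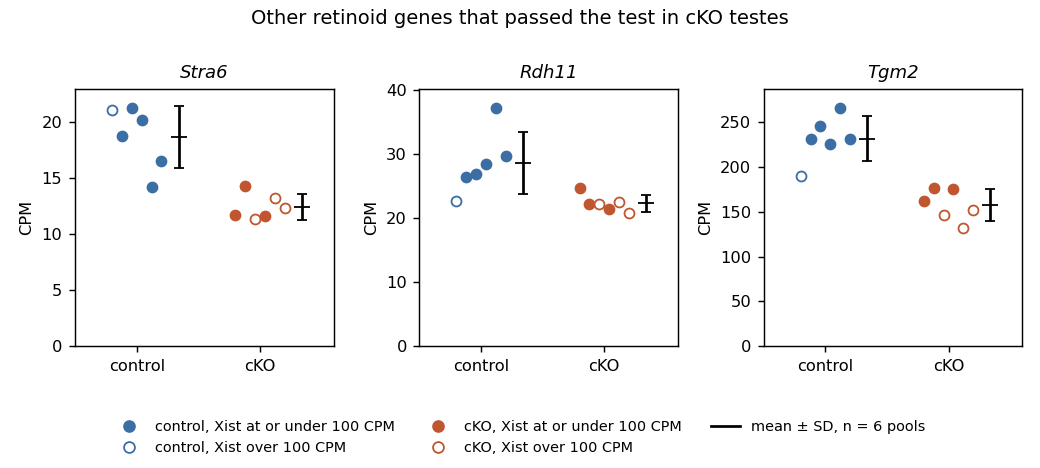
CPM (linear axes from 0) of the 3 other retinoid genes called lower in cKO testes, in 6 control and 6 cKO pools with mean ± SD, and open points for Xist over 100 CPM. All cKO points of Tgm2 lie under the lowest control point.

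Stra8, the germ cell gene that retinoic acid induces before meiosis, was 5.28, 3.50, 3.12, 3.67, 10.2 and 7.95 CPM in control 1 to 6 and 3.72, 6.54, 2.58, 4.56, 87.7 and 73.6 CPM in cKO 1 to 6. The values of cKO 5 and cKO 6 stood far above the other 10 libraries, which ranged from 2.58 to 10.2 CPM. The fit over 12 libraries gave a log2 fold change of 2.45 ± 0.87 SE that did not pass the test (edgeR adjusted p = 0.0997). Without these 2 libraries it was -0.34 (edgeR adjusted p = 0.603). Rec8, a meiotic cohesin and also a retinoic acid target, was chosen after its values were seen. It was 68.9 and 59.6 CPM in cKO 5 and cKO 6, 28.8 and 25.0 CPM in control 1 and cKO 3, and 8.66 to 15.9 CPM in the 8 libraries with low Xist (log2 fold change 1.20, edgeR adjusted p = 0.121). Without cKO 5 and 6 its log2 fold change was 0.27 (edgeR adjusted p = 0.646) and in the 8 libraries 0.38 (edgeR adjusted p = 0.133). Without control 1, the highest control, it was 1.58 (edgeR adjusted p = 0.0274), in a fit that called 3106 genes against 1266 with all 12 libraries.

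Stra8 was thus highest in cKO 5 and cKO 6, in which Cyp26b1 was low. Cyp26a1 had its highest level in cKO 6, on 37 reads, and the level of cKO 5 rests on 3 reads. Control 5 had less Cyp26b1 than either, with 10.2 CPM of Stra8 and 0.153 CPM of Cyp26a1. Xist was 507 and 433 CPM in cKO 5 and cKO 6 and low in control 5. The other 2 libraries with high Xist had less Stra8 and Cyp26a1 than cKO 5 and cKO 6. Control 1 (Xist 891 CPM) was at 5.28 and 0.162 CPM, both within the range of the other controls. In cKO 3 (Xist 304 CPM) the levels were 2.58 and 0.0861 CPM, the lowest Stra8 of the 12. The summed meiotic germ cell markers were 513 and 530.4 CPM in cKO 5 and cKO 6, 266 and 269.7 CPM in control 1 and cKO 3, and 97.0 to 159 CPM in the 8 libraries with low Xist. The part of these values in the levels of Cyp26a1 and Stra8 was not tested.

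**Figure D5:**
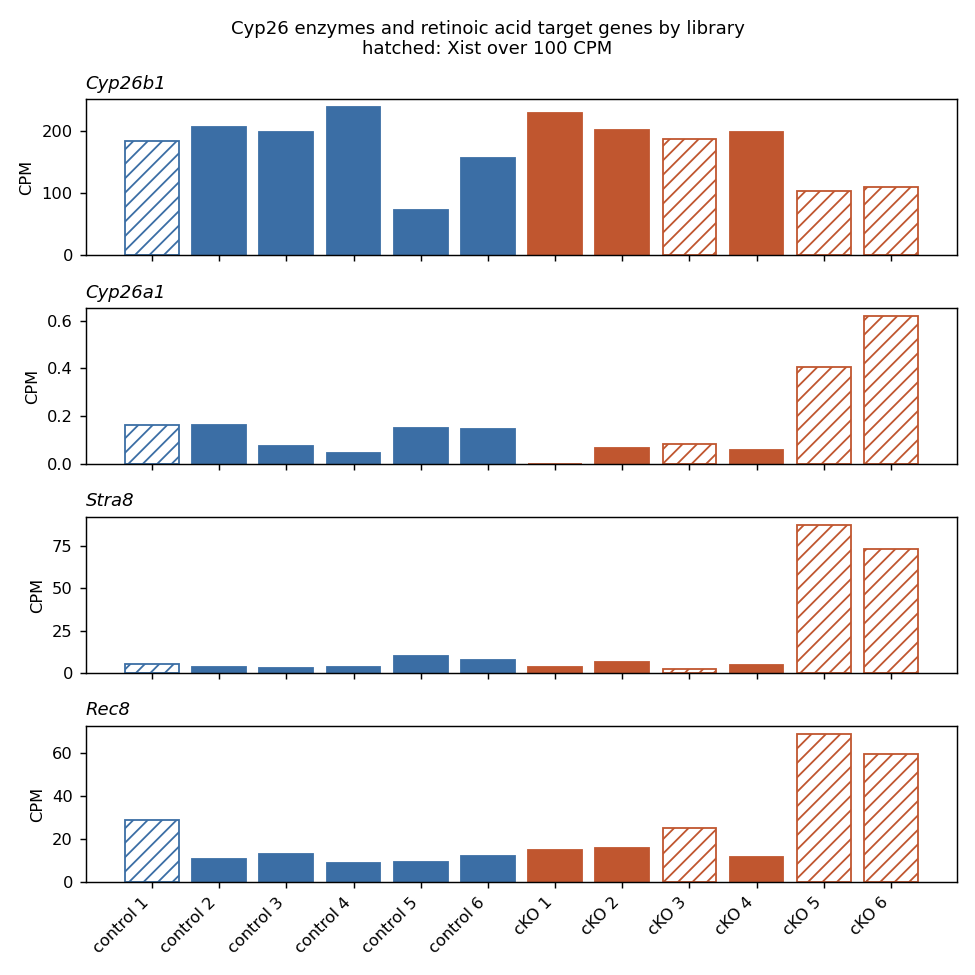
Bars give the CPM of Cyp26b1, Cyp26a1, Stra8 and Rec8 in each library (linear axes from 0), with hatching where Xist is over 100 CPM. Stra8 and Rec8 are highest in cKO 5 and cKO 6, the Cyp26a1 bar of cKO 5 rests on 3 reads, and Cyp26b1 is lowest in control 5, cKO 5 and cKO 6.

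Profiles over the 12 libraries were compared by the root mean square (RMS) difference of log2 CPM centred on each gene's mean, among the 14271 genes whose mean reached 1 CPM. Cyp26a1, with the largest SD of the 9 genes (0.87 on the log2 scale), was most like Boll (RMS 0.343), Ankrd34b (0.358) and Hfm1 (0.361), all of which were highest in cKO 5 and cKO 6. With 0 to 6 reads of Cyp26a1 in 11 of the 12 libraries and 37 in cKO 6, its SD and these distances rest on few reads and on the prior count. How much of them is counting error was not tested. For the others shown, chosen after their values were seen, the nearest were Hsd11b2 (0.114), Hspa1a (0.125) and Nlgn3 (0.136) to Cyp26b1, and Dcun1d4 (0.121), Neurl1a (0.131) and Fam102b (0.139) to Dhrs3. These distances describe the 12 libraries and have no test.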

How the data were processed

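RNA was isolated from 12 pools of E14.5 testes, and libraries were made from polyadenylated RNA with a strand-specific kit. Per the submitters' processing notes the authors used Trim Galore 0.6.7, STAR 2.5 and featureCounts of Subread 1.5.0-p1 with mm10, and they deposited raw counts per RefSeq Curated gene without normalization. All 12 columns were used, grouped by the labelled genotype.

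The tests used edgeR 4.0.16 in R 4.3.3 (TMM, glmQLFit and glmQLFTest without covariates), after filterByExpr set to at least 10 reads and a total of at least 15. The SE is the size of the log2 fold change divided by the square root of F. CPM come from TMM-scaled library sizes, and log2 CPM has a prior count of 2. Exon lengths are unions of GENCODE M21 exons. Genes under the filter and values relative to markers were compared by exact permutation over the 924 splits of 12 libraries. With a common biological coefficient of variation of 0.17, the spread between pools set the precision except for the lowest genes. Whether pools came from separate litters is not given in the sources used here, so p-values measure the spread between these pools.

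The 9 genes, the pathway and marker lists and the 8-library comparison were chosen with earlier results of these data known. Named were the 9 genes, every listed pathway gene called, Rdh10, Rbp4, Rara, Rarb, Rarg, Stra8, Nr2f2, Xist and Aldh1a7, and the 3 genes most like the one of the 9 with the largest SD of log2 CPM, since none was called. Alternatives were DESeq2 1.42.0, limma 3.58.1 (voom), other scalings and filters, a surrogate variable (sva 3.50.0), Xist as covariate, a replicate block and leaving out libraries. A gene listed at the design stage is not reported here and was left out of the list counts. The count tests were tested on simulated data.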

Additional observations from a re-analysis of the deposited data

Results flagged for a closer look

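Among 56 groups of 6 values examined for a single library far from the others, 8 had one, where chance gives about 1 in 20. Aldh1a2 was 121 CPM in cKO 6 with the next cKO library at 103 CPM. Aldh1a3 was 9.41 CPM in control 5, with the next control at 6.80 CPM. Cyp26c1 was 0.198 CPM in cKO 2 and at 0 in the other cKO libraries. Cyp26b1 relative to the Sertoli markers was 0.488 on the log2 scale in control 5, with the next control at 1.39. Rarb was 7.80 CPM in control 5, with the next control at 5.06 CPM. Control 1 stood apart in Rec8 (28.8 CPM, next 12.9), Nrip1 (42.9 CPM, next 25.2) and Xist (891 CPM, next 6.40). Control 5 accounted for 3 of the 8 and control 1 for 3.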

How the results depend on the processing

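Depth limits Cyp26a1 and Cyp26c1, and the spread between pools limits the rest. Over 23 alternatives the fold changes of Aldh1a2 (-0.18 to -0.09), Aldh1a1 (0.16 to 0.32), Crabp1 (-0.57 to -0.16), Crabp2 (-0.45 to -0.20) and Dhrs3 (-0.46 to -0.25) kept their sign. The cause of the changes listed here was not tested. With Xist as a covariate 2 of the 9 genes were called (Aldh1a1 0.30, Dhrs3 -0.39), and Cyp26b1 was 0.02. In the 8 libraries with low Xist 2 were called (Dhrs3 -0.46, Crabp1 -0.56), 1 other retinoid gene was called higher (Nrip1), and Aldh1a3 was -0.02, Cyp26b1 0.26, Stra8 -0.11, Cyp26a1 -0.72 and Aldh1a2 relative to its markers -0.14. Without cKO 5 and 6, chosen after seeing the data, 733 genes were called (375 lower), Cyp26b1 was 0.21 and Stra8 -0.34. DESeq2 called 1919 genes (878 higher) against 1266 by edgeR (510 higher), with Nrip1 as 1 pathway gene higher and Fabp5 as a further one lower (-0.44, DESeq2 adjusted p = 0.0249). A prior count of 0.5 gave Cyp26a1 -0.12. Taking single markers out, also chosen after seeing the data, gave Aldh1a2 -0.34 without Lhx9, -0.27 without Krt19 and -0.19 without Msln, and Cyp26b1 relative to Sertoli markers -0.02 without Dhh and -0.01 without Cldn11.

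Leaving out 1 library at a time gave 816 (without cKO 4) to 3106 (without control 1) called genes, 497 to 1635 lower and 319 to 1471 higher. Of the 9 genes 0 to 1 was called (Crabp2 without control 1, Dhrs3 without cKO 3), and of the pathway genes 2 to 6 were lower and 0 to 2 higher, with both upper values without control 1. Crabp2 ran from -0.45 to -0.23, Dhrs3 from -0.39 to -0.25, Cyp26b1 from -0.19 to 0.07, Cyp26a1 from -0.26 to 0.39, Aldh1a2 relative to its markers from -0.39 to -0.26 (p up to 0.0779, exact permutation) and Cyp26b1 relative to Sertoli markers from -0.19 to 0.09. A replicate block gave 931 called genes (392 higher), 0 of the 9 and 2 pathway genes lower, without Rdh11. Samples of the same number deviated together with correlations of -0.334 to 0.242, and 0 of 6 numbers correlated best with their own, so the numbers do not pair the pools.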
